A study of Mus musculus with 2 samples.

Results

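The cells described here are the cartilage-matrix cells of tumour 2, a mouse glioblastoma: EGFP-carrying cells in which genes of the cartilage matrix made up an unusually large share of the RNA. A cell was selected when it held at least 20 UMIs of EGFP and at least 10 UMIs of Col2a1, Col9a1, Col9a3 and Matn1 together, each per 10,000 UMIs of mouse genes. A UMI is a molecular tag that counts each captured transcript once, and the summed level of these 4 genes is called the cartilage sum. Cells with a cycling sum (Mki67, Top2a, Ube2c, Aspm, Prc1 and Cenpf) of 10 or more, any Gpr17 UMI, a C1qa, C1qb and C1qc sum of 5 or more, or any UMI of Cd3d, Cd3e or Cd3g were left out. In all, 264 of 9745 EGFP cells of tumour 2 passed (2.71%, exact binomial interval 2.40 to 3.05), of 15555 barcodes within the quality limits in that library and 28409 in the series. Because cells were chosen by these genes, their levels and every difference from other cells of the same library are given as descriptions with no test.

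The series holds 2 single-cell libraries, each from 1 NPCTKO glioblastoma of a C57BL/6 mouse of 3 months. In NPCTKO mice, neocortical progenitors of the embryo are electroporated in utero with piggyBac plasmids that carry Cas9, luciferase, a fluorescent label and guides against tumour suppressors such as Trp53 and Nf1, so that a tumour descends from the progenitors that took up the plasmids in 1 brain. One tumour grew in a Tek-Cre;Ai14 host, in which tdTomato marks endothelial cells, macrophages and their descendants, and the other in a Tbx18 CreERT2/+;Ai14 host, in which it marks mural cells after tamoxifen. The labels do not give which host belongs to which library, so host, tumour and library cannot be told apart, and with 1 library a tumour no replicate error exists. Intervals are exact Poisson or exact binomial (Clopper-Pearson) intervals at 95%, and they cover counting error only.

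Cartilage owes its stiffness to a mesh of thin collagen fibrils that traps large, charged proteoglycans. Collagen II (Col2a1) is the main fibril protein, collagen XI (Col11a1, Col11a2) sits in its core and sets its thickness, and collagen IX (Col9a1, Col9a2, Col9a3) decorates its surface. Aggrecan (Acan) provides the charge, Hapln1 links it to hyaluronan, and matrilins such as Matn1 bridge fibrils and proteoglycans. In chondrocytes these genes are switched on by Sox9 with Sox5 and Sox6, and hypertrophic chondrocytes later turn to Col10a1 and to bone genes. Sox9, Sox5 and Sox6 are also used by glial progenitors of the brain.

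The members were well covered, with a median of 16329 UMIs (1789 in the shallowest cell) and 3914.5 genes per cell. The median mitochondrial share was 6.50%, against 4.46% in low-cartilage EGFP cells, the 2318 EGFP cells that passed every other part of the rule but had a cartilage sum under 10. Those cells had a median of 14176.5 UMIs, and the part of depth and mitochondrial share in the differences was not tested. The 2 libraries shared 51 barcodes, and 1 member's barcode was among them.

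As to the label, the cells carried RNA of glioma and glial genes and little of fibroblast, vascular, neuronal and T-cell genes. Sox2, a stem-cell factor, was detected in 86.0% of members and Olig2, an oligodendrocyte-lineage factor, in 66.3%. The glioma markers Sox2, Olig2, Nes and Pdpn summed to 463 CPM (UMIs per 1000000 mouse-gene UMIs over all cells of a group), against 490 in low-cartilage cells and 62.0 and 77.2 in cells of macrophage type (TAM-type: EGFP under 20, C1q sum of at least 20 per 10,000) and T-cell type (EGFP under 20, Cd3 sum of at least 5). Sums over the glial lists were above those of low-cartilage cells, but few genes carried some of them. The 4 oligodendrocyte progenitor genes summed to 572 CPM against 445 in low-cartilage cells. The 5 oligodendrocyte genes summed to 409 against 358, mostly Mbp and Cldn11, and the 5 astrocyte genes to 366 against 239, mostly Gfap. The other oligodendrocyte genes were lower: Mag at 8.08 against 28.7, Mog at 3.73 against 11.4 and Klk6 at 0.414 against 3.66. So were the other astrocyte genes, with Aqp4 at 2.28 against 21.6 and Slc1a2 at 24.2 against 52.8. Aldh1l1 and Gja1, defining markers of astrocytes, gave 1 UMI each (0.207 CPM against 7.94 and 5.83). The 5 fibroblast genes summed to 15.3 CPM against 80.7 in low-cartilage cells, the 3 endothelial genes to 2.07 against 15.1, and the 3 neuronal genes to 2.07 against 13.3. Most of the fibroblast sum was Lum, with 58 UMIs in 33 members, whereas Col3a1 gave 2 UMIs in all members. The 4 mural genes summed to 9.74 CPM against 17.8 in low-cartilage cells, mostly Acta2, with 43 UMIs in 23 members. Tek, Pdgfrb and Tbx18 gave 0 UMIs, for which the exact Poisson interval reaches up to 0.764 CPM. The macrophage genes Cd14, Aif1 and Tmem119 summed to 56.6 CPM, against 66.1 in low-cartilage cells and 2621 in TAM-type cells.

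All 4 markers given for these cells, Col2a1, Matn1, Wfdc12 and Mgp, were higher in members than in the other EGFP cells, but Col2a1 and Matn1 belong to the rule. Wfdc12 and Mgp do not: Wfdc12 lies at chr2:164189231-164190608 on the minus strand and Mgp at chr6:136872435-136875823 on the minus strand (GRCm38, GENCODE annotation). Sequences upstream of the annotated starts are shown for Wfdc12, whose level differed more between the tumours than that of the other markers, and for the rule genes Matn1 and Col9a1, with the 50 bases nearest the start in capitals. They are RefSeq sequences of build GRCm38.p6, written 5′ to 3′ on the gene's strand, and 3 of the 6 genes looked up had an entry. Col2a1, Col9a3 and Mgp are named only.

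Wfdc12, chr2:164190609-164190808, minus strand: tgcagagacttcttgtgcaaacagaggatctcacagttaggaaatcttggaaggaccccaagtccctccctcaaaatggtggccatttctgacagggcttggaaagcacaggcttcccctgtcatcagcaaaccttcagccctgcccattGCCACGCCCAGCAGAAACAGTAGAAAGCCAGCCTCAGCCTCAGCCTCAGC
Matn1, chr4:130944135-130944384, plus strand: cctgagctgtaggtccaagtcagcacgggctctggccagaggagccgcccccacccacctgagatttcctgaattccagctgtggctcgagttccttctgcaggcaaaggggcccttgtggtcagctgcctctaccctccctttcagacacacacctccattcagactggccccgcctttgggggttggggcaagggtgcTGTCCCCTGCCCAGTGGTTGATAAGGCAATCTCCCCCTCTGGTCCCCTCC
Col9a1, chr1:24177360-24177609, plus strand: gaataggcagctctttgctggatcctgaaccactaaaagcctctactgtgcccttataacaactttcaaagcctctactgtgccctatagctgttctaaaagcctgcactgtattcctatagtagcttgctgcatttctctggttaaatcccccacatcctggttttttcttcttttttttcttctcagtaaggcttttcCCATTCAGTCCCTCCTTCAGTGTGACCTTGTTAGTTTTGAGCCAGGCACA

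The letters ACAAAG and ACAATG, bound by SOX-type factors, and TATAAA were searched on both strands in windows of 300 bases, from 250 before to 50 after each start. None of the windows of Wfdc12, Matn1 and Col9a1 held them. Over all 32851 windows of the table, 28.6% held a SOX-type match and 13.6% a TATA box, against 4 and 5 of 28 windows of cartilage-list genes. Among the genes named below as higher in members, 7 of 22 windows held a SOX-type match and 2 of 22 a TATA box. These are counts of letters in short windows and not of bound sites.

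The rule genes did not come as a fixed set in each cell. The cartilage sum of members ran from 10.0 to 62.0 per 10,000 with a median of 16.0, and rested on a median of 28 UMIs, with 23 members on fewer than 5. All 4 genes were detected in 113 members, 3 in 105, 2 in 37 and 1 in 9. Col9a3, an alpha chain of collagen IX, made up 40.5% of the rule's UMIs and was found in 254 members. Col2a1 gave 3249 UMIs against 3759 of Col9a3 and was found in 225 members, Col9a1 made up 13.6% and was found in 223, and Matn1 made up 10.9% and was found in 148. Within members the level of Col2a1 and that of Col9a3 ran against each other across cells (Spearman's rank correlation −0.43 over 264 cells, where the sum that selected the cells ties them together), and Col2a1 was the highest of the 4 in 96 members against 117 for Col9a3.

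**Figure D1:**
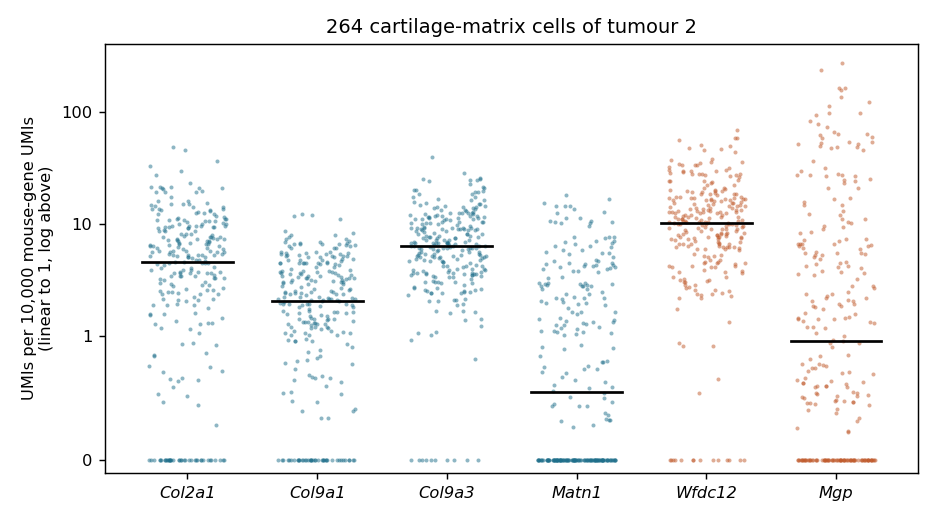
Level of the 4 rule genes (blue) and of Wfdc12 and Mgp (orange) in each of the 264 members, in UMIs per 10,000 mouse-gene UMIs on an axis that is linear to 1 and logarithmic above. Each point is a cell and the bar is the median: Wfdc12 sits at 10.2 with few cells at 0, whereas Mgp has a median of 0.962 and reaches 273.

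Just inside the limit the sum was 10.0 to 10.4 in the 10 nearest cells and just outside it was 9.65 to 9.95, so no gap separated the members from the cells next to them. The 89 cells with a sum of 8 to under 10 had 1118 CPM of Wfdc12, and the 56 members at 10 to under 12 had 1115. Mgp differed more across the line, with 342 and 835 CPM.

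Mgp, Wfdc12 and most of the cartilage matrix that the rule had not named were higher in members than in both comparison groups. These traits were not all particular to members. EGFP cells with a Gpr17 UMI and a cartilage sum of 10 or more came near for Wfdc12 (1178 CPM against 1398 in members). They did not for Mgp (511 against 1564). Mgp, an inhibitor of calcification made by cartilage and vessel walls, was 10.1-fold higher than in the 9481 other EGFP cells and 12.8-fold higher than in low-cartilage cells. Wfdc12, a small secreted protein of the whey acidic protein family known for its protease inhibitors, was 3.41-fold and 5.50-fold higher. At least 2-fold differences were common: 325 of 8293 genes kept were higher in members than in all other EGFP cells (3.92%) and 442 lower (5.33%). Against low-cartilage cells, 428 of 8287 genes were higher (5.16%) and 478 lower (5.77%). In both comparisons 277 genes were at least 2-fold higher and 270 at least 2-fold lower, and the genes kept were those with 10 CPM or more in the higher group and 50 UMIs in all. These counts include genes of the rule, whose levels the selection used, among them 4 of the 277. Outside the rule, 321 of 8279 genes were higher and 432 lower than in all other EGFP cells. Against low-cartilage cells 424 of 8275 were higher and 478 lower.

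Wfdc12 was spread over nearly all members. Its level was 1398 CPM in members, 410 in other EGFP cells, 254 in low-cartilage cells, 99.6 in TAM-type and 124 in T-type cells, and the intervals of its folds were 3.32 to 3.50 and 5.33 to 5.68. It was detected in 250 of 264 members (94.7%), with a middle range of 5.37 to 16.9 per 10,000. Free RNA puts some UMIs into all cells, so the shares were also taken with each cell thinned to 2000 UMIs: 78.8% of members, 27.3% of low-cartilage, 15.6% of TAM-type and 20.8% of T-type cells then held a Wfdc12 UMI, with 9, 31, 6 and 0 shallower cells left out. Unthinned, the last 3 shares were 70.9%, 68.2% and 64.0%, at median depths of 14176.5, 20601.5 and 9093 UMIs.

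Mgp was instead carried by few cells. It was at 1564 CPM in members, 154 in other EGFP cells and 122 in low-cartilage cells, with 42.8 and 47.8 in TAM-type and T-type cells, and the intervals of its folds were 9.88 to 10.4 and 12.4 to 13.3. A UMI was found in 187 members, but the top 13 cells held 54.9% of all its UMIs. The median cell had 0.962 per 10,000, the highest 273, and 57 members had 10 or more.

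The collagens that partner collagen II followed the same direction. All 4 kept genes among the other cartilage collagens were at least 2-fold higher in both comparisons, with median log2 folds of 1.92 and 2.65 beside 0.01 and 0.04 over all genes kept. Col11a1 was at 852 CPM against 231 and 151 (3.69-fold and 5.66-fold) and was detected in 246 members. Col11a2 was at 268 CPM against 75.7 and 38.7. Col9a2, the collagen IX chain that the rule left out, was at 46.4 against 10.8 and 5.85, and was found in 73 members. Col27a1, a thin-fibril collagen of growing cartilage, was at 91.6 against 23.5 and 25.7. Col10a1, the hypertrophic collagen, had 0 UMIs in members.

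Proteoglycans and small matrix adaptors were mostly higher as well. Of 13 kept genes, 9 were at least 2-fold higher than in other EGFP cells and 11 than in low-cartilage cells, with median log2 folds of 1.58 and 2.50, and 1, Matn2, was lower in both (11.4 CPM against 29.7 and 51.0). Aggrecan (Acan) was at 231 CPM against 48.0 and 26.1, and was detected in 200 members. Its share after thinning was 32.2% in members, 3.85% in low-cartilage, 1.24% in TAM-type and 2.10% in T-type cells. Hapln1, the link protein, was at 95.1 CPM against 38.2 and 19.1, and Lect1, the chondromodulin precursor, at 200 against 66.9 and 35.4. Fmod, which binds collagen fibrils, was at 53.3 against 7.32 and 4.85, and Mia, secreted by cartilage and melanoma cells, at 152 against 28.2 and 25.5. Matn4 was at 528 against 285 and 268, under 2-fold in both. Ucma and Cytl1, both known from cartilage cells, were 13.6-fold and 9.48-fold higher than in low-cartilage cells but came from few cells: 13 members held 88.9% of the Ucma UMIs, and 10 members held all 125 of Cytl1. Comp, a protein of mature cartilage, gave 7 UMIs.

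The enzymes that modify collagen and sulfate proteoglycans were higher in part. Of 19 kept genes, 9 and 8 were at least 2-fold higher and 0 were at least 2-fold lower, with median log2 folds of 0.96 and 0.88. Papss2, which makes the sulfate donor, was at 19.9 CPM against 3.82 and 2.58, and Plod1, a collagen lysyl hydroxylase, at 99.5 against 38.5 and 38.8. The sulfate transporter Slc26a2 was at 61.1 against 25.2 and 16.2. Serpinh1, the collagen chaperone, was not higher (49.1 against 55.3 and 90.6). Of 25 genes of protein folding in the endoplasmic reticulum, 0 passed 2-fold in either direction or comparison, and their median log2 folds were 0.18 and 0.11.

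Most chondrocyte transcription factors differed from the comparison cells by less than 2-fold. Of 11 kept, 1 (Foxc1) was at least 2-fold higher than in other EGFP cells and 2 (Foxc1 and Sox6) than in low-cartilage cells. Of all genes kept, 3.92% and 5.16% were. The median log2 folds of the 11 factors were 0.35 and 0.31. Sox9 was at 60.9 CPM against 34.7 and 49.2, and 110 members had a UMI of it. Sox6 was at 186 against 119 and 91.0, and Sox5 at 39.4 against 35.9 and 35.3. Foxc1, a forkhead factor of mesenchyme, was at 18.2 against 5.12 and 4.10. Of the 3 kept genes of hypertrophy and bone, Pth1r was higher (17.4 against 8.52 and 6.24), while Spp1 (6.01 against 20.7 and 13.3) and Mef2c (2.49 against 14.4 and 20.1) were lower.

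Signalling genes differed in both directions, with medians from −1.27 to 0.05, and shares of them past 2-fold can be read beside the 3.92% and 5.33% of all genes that were higher and lower than in other EGFP cells. Of the BMP and TGF-beta genes kept, 1 was at least 2-fold higher and 2 lower of 13 against other EGFP cells, and 0 and 3 of 14 against low-cartilage cells. Id2, a BMP target, was the higher one (272 CPM against 135 and 148). Among FGF receptors and feedback genes, Fgfr3, which restrains cartilage growth, was higher (21.6 against 9.17 and 8.56) and Spry2 lower (22.8 against 57.3 and 81.4), of 11 and 12 kept. Of the Notch, Wnt and hedgehog targets, Hey2 was higher (16.4 against 7.49 and 7.32) and Nkd1 lower (4.14 against 22.7 and 35.9), with 2 of 6 and 4 of 7 lower in all.

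**Figure D2:**
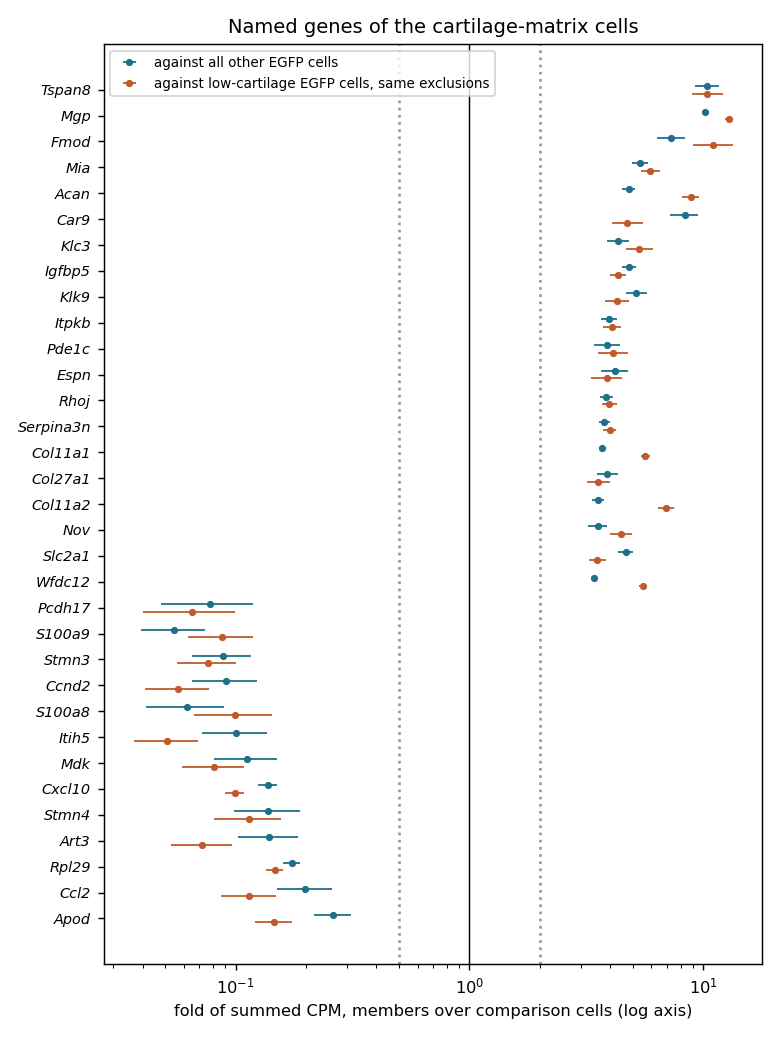
Fold of summed CPM, members over comparison cells, on a log axis for the genes named by a fixed rule: blue against all other EGFP cells, orange against low-cartilage EGFP cells. Points are folds, lines exact Poisson intervals and dotted lines 2-fold; Tspan8 and Mgp lie 10-fold or more to the right, and Pcdh17 and Itih5 near or under 0.1 to the left.

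Ranked by the smaller of the 2 folds among genes at 50 CPM or more, the genes highest in members outside the rule were Tspan8, Mgp, Fmod, Mia and Acan. Tspan8, a tetraspanin of the cell surface, was at 84.8 CPM against 8.18 and 8.15, and 13 members held 62.1% of its UMIs. Below these came Klc3, Igfbp5, Klk9, Itpkb, Pde1c, Espn, Rhoj, Serpina3n, Col11a1, Col27a1, Col11a2 and Nov, between 3.53-fold and 8.31-fold in both comparisons together with the hypoxia genes Car9 and Slc2a1. Igfbp5, which binds insulin-like growth factors, was at 202 CPM against 41.9 and 47.0. Serpina3n, a protease inhibitor of reactive astrocytes, was at 321 against 84.9 and 80.7. Rhoj, a small GTPase, was at 233 against 60.4 and 58.7, and Nov, a matricellular protein of the CCN family, at 110 against 31.1 and 24.7, of which 13 members held 69.4%.

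The genes lowest in members included neuronal and chemokine genes. Pcdh17, a protocadherin, was at 4.35 CPM against 55.9 and 66.9, and Stmn3, a neuronal stathmin, at 10.2 against 115 and 134. Ccnd2, a D-type cyclin, was at 8.50 against 93.4 and 149, and Itih5, which binds hyaluronan, at 8.50 against 84.5 and 166. Mdk, a growth factor of neural progenitors, was at 9.12 against 81.8 and 112. Cxcl10, a chemokine induced by interferon, was at 103 against 751 and 1039, with 26.0% of the members' UMIs in 1 cell. The neutrophil genes S100a8 and S100a9 were at 6.01 and 8.70 CPM, against 60.5 and 99.7 in low-cartilage cells and 370 and 614 in EGFP cells that held C1q or Cd3 RNA over the limit. Stmn4, Art3, Ccl2, Apod and Rpl29 were also at 0.261 or less of the level in other EGFP cells. For Art3, 1 member held 51.1% of the UMIs, and Rpl29, a ribosomal protein gene with many near-identical copies, stood at 111 CPM against 641 and 758.

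Most glioma and progenitor genes differed from the other EGFP cells by less than 2-fold, though 4367 of the 9481 other EGFP cells held C1q or Cd3 RNA over the limit. Of 12 kept glioma and stem-cell genes, 0 were 2-fold higher in either comparison and 0 and 2 were lower: Nes (36.9 CPM against 60.2 and 79.6) and Fabp7, a radial glia gene (945 against 1820 and 2689), were at 0.463 and 0.352 of the low-cartilage level. Sox2 was at 284 against 280 and 242, and Olig2 at 111 against 166 and 135. Of 19 oligodendrocyte progenitor genes, Susd5 was higher, and Cspg5 and Emid1 were lower, in both comparisons, while Pdgfra (108 against 119 and 105) and Cspg4 (57.2 against 59.3 and 58.5) were nearly level. Myelin genes were lower: 6 of 9 and 7 of 10 kept genes, with medians of −1.94 and −2.10, among them Mag (8.08 against 35.8 and 28.7), while Mbp was at 205 against 298 and 198.

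Astrocyte genes were split. Of 15 and 16 kept genes, 7 and 6 were at least 2-fold higher and 0 and 3 lower. Gfap, the intermediate filament of astrocytes, was at 339 CPM against 105 and 151, and Aldoc, a glycolytic enzyme of astrocytes, at 870 against 258 and 295. S100b was at 1502 against 751 and 530. Aqp4, the water channel of astrocyte endfeet, was at 2.28 against 9.09 and 21.6, and Slc1a3, a glutamate transporter, at 62.2 against 91.3 and 139. In Gfap 13 members held 60.7% of the UMIs.

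Genes of the fibrillar matrix of fibroblasts differed in both directions. Of 14 and 15 kept fibrillar and fibroblast genes, 4 and 3 were at least 2-fold higher and 4 and 7 lower. Col1a2 gave 3 UMIs in all members (0.622 CPM against 13.4 and 28.4) and Col3a1 2 (0.414 against 12.7 and 26.5). Postn was at 4.77 against 36.9 and 68.9. On the other side, Col6a3 was at 20.5 against 6.93 and 9.49, and the proteoglycan Bgn at 179 against 89.5 and 81.4. Of 14 genes of the mesenchymal glioma state, 2 and 1 were higher and 2 and 5 lower, with Lgals1 (1562 against 684 and 767) higher and Cd44 (10.6 against 28.1 and 46.5) lower in both.

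Part of the hypoxia genes were higher, and interferon and cholesterol genes mostly lay below the level of other cells. Of 17 and 18 kept hypoxia genes, 6 and 4 were at least 2-fold higher and 0 lower, with medians of 0.84 and 0.48. Car9, a carbonic anhydrase induced by low oxygen, was at 56.2 CPM against 6.76 and 11.9, and Slc2a1, the main glucose transporter, at 185 against 39.8 and 52.6. Of 26 interferon-response genes, 0 were at least 2-fold higher and 6 and 10 lower, with medians of −0.69 and −0.90, and B2m was at 740 against 1716 and 2073. All 18 genes of cholesterol synthesis were below 1-fold in both comparisons, 3 and 6 of them by 2-fold or more, with medians of −0.63 and −0.73. Fdps was at 245 against 457 and 500. Of the 24 G2 and M phase genes kept, 24 were lower than in all other EGFP cells, where the exclusion of cycling cells sets the direction, and 1 of 14 was lower than in low-cartilage cells.

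Within the EGFP cells that passed every exclusion, Wfdc12, Mgp, Acan, Fmod, Col9a2, Col11a1 and Col11a2 were higher in each bin of a higher cartilage sum, while Hapln1, Mia and Matn4 were lower in the last bin than in the one before. Over sums of 0, above 0 to under 10, 10 to under 20, 20 to under 40, and 40 or more, with 670, 1648, 191, 59 and 14 cells, Wfdc12 was at 94.5, 297, 1233, 1684 and 2239 CPM. Mgp was at 67.8, 136, 939, 2686 and 4626, and Acan at 6.95, 31.3, 178, 300 and 585. In the last bin 1 member held 530 of the 1376 Mgp UMIs. Sox2 varied little, with 223, 248, 282, 296 and 269, and Sox9 was at 54.9, 47.7, 50.1, 91.0 and 74.0 with an interval of 46.4 to 112 in the last bin. Itih5 ran the other way, at 263, 141, 9.33, 5.46 and 10.1. Cxcl10 was at 1239 and 985 in the low-cartilage bins, 73.2 and 82.9 in the next ones and 518 in the last, of 14 cells. The first bin had a median of 10004 UMIs per cell against 15749 to 21489 in the 3 bins of members.

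**Figure D3:**
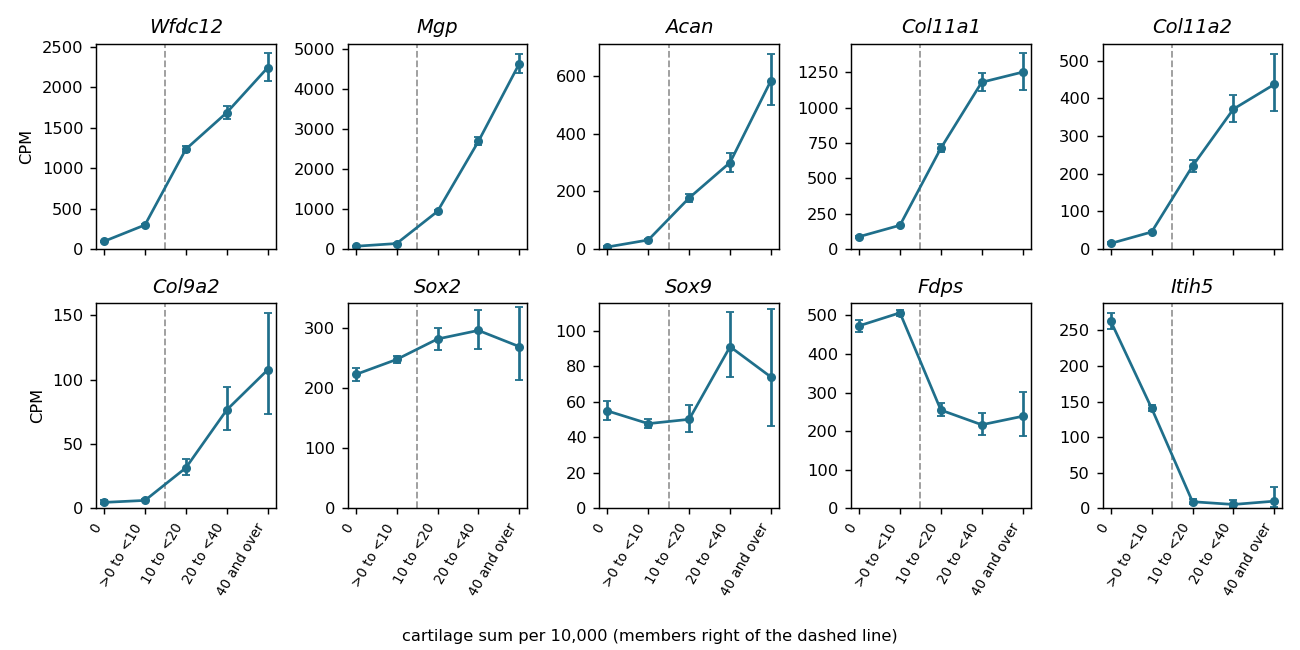
CPM of 10 genes outside the rule (y axis) in EGFP cells that passed every exclusion, by bin of the cartilage sum per 10,000 (x axis), with members right of the dashed line. Points are sums over the cells of a bin and bars exact Poisson intervals; Wfdc12, Mgp, Acan and the collagens are higher to the right, Sox2 stays between 223 and 296, and Itih5 is lower right of the line.

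Members also differed among themselves, and the following splits were chosen after values had been seen. The 57 members with 10 or more Mgp UMIs per 10,000 had more RNA of several cartilage and glial genes than the other 207, but not of all. Serpina3n was at 811 CPM against 164, Gfap at 884 against 165, Acan at 457 against 158 and Col2a1 at 1031 against 559. Fmod was at 138 against 26.2 and Ucma at 102 against 6.84. Progenitor genes ran lower, with Olig2 at 59.1 against 127 and Pdgfra at 50.5 against 127, while Sox9 was at 100.2 against 48.4. Matn1 was at 206 against 210, Aldoc at 839 against 880 and S100b at 1213 against 1594. Median depth was 19157 against 15575 UMIs, and its part was not tested.

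A second division followed Car9. The 53 members with a Car9 UMI had higher levels of many genes of low oxygen. Bnip3, a mitophagy gene, was at 496 CPM against 49.1 in the other 211. Slc2a1 was at 493 against 107 and Vegfa, the vascular growth factor, at 160 against 28.6. Ldha, which makes lactate, was at 1687 against 615, and Egln3, an oxygen sensor, at 84.8 against 8.32. Folds of Hilpda (1.39, 0.965 to 1.98), Pdk1 (1.72, 0.598 to 4.42) and Car12 (1.96, 0.0333 to 37.7) had counting intervals that include 1. Of genes outside the hypoxia list, Espn, an actin-bundling protein, was at 208 against 12.7 and Tspan8 at 245 against 43.9. For Espn, 13 members held 66.8% of the UMIs. Col2a1 was at 938 against 606, but Col9a2 was at 17.4 against 53.8. Median depth was 16610 and 16238 UMIs.

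Across members the rule genes paired unevenly with the other matrix genes. As descriptions over 264 cells that share 1 library and were selected on the sum, Spearman's rank correlation was 0.49 for Acan with Col2a1 and 0.37 for Col11a1 with Col9a1. It was −0.14 for Acan with Col9a3. The cartilage sum had a rank correlation of 0.05 with UMIs per cell and −0.005 with EGFP.

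A high cartilage sum was also found in EGFP cells that the exclusions took out. In tumour 2, 1233 EGFP cells (12.7%) had a cartilage sum of 10 or more, and 969 of them were removed: 534 held a Gpr17 UMI (399 of these were removed for it alone), 420 had C1q RNA over the limit, 221 had a high cycling sum and 77 a Cd3 UMI. The exclusions together covered 78.6% of these 1233 cells and 73.5% of all EGFP cells. The shares were 43.3% and 30.1% for Gpr17 and 34.1% and 40.7% for C1q. For cycling they were 17.9% and 19.5%, and for Cd3 6.24% and 6.50%. Gpr17 marks committed oligodendrocyte progenitors. Among EGFP cells sorted in the order C1q or Cd3, cycling, then Gpr17, a sum of 10 or more was found in 20.5% of 1946 Gpr17+ cells (18.7 to 22.4), 11.2% of 850 cycling cells (9.14 to 13.5) and 10.2% of the 2582 that passed every exclusion (9.08 to 11.5). Thinned to 2000 UMIs the shares were 26.4%, 16.5% and 14.6%. In TAM-type and T-type cells they were 0.851% and 0.699%, and 2.33% and 2.80% when thinned.

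The 399 Gpr17+ cells with a high cartilage sum had much of the same matrix RNA and more RNA of Bcas1, an early myelinating gene. Wfdc12 was at 1178 CPM there and 1398 in members, Col11a2 at 266 and 268, Hapln1 at 117 and 95.1 and Matn1 at 359 and 209. Mgp was at 511 against 1564 in members, and Slc2a1 at 70.0 against 185. Bcas1 was at 831 against 430. In the 95 cycling cells with a high sum, Mgp was at 191 CPM, Wfdc12 at 838 and Acan at 181. The 475 cells with C1q or Cd3 RNA over the limit and a high sum were 10.9% of the 4367 EGFP cells with such RNA. They had a median of 1941 UMIs, so their sums rest on few counts. Pooled over them, Col2a1 was at 712 CPM, Col9a3 at 956 and Fmod at 62.7, against 673, 779 and 53.3 in members. Wfdc12 at 921, Mgp at 787 and Col11a2 at 252 were below the 1398, 1564 and 268 of members.

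**Figure D4:**
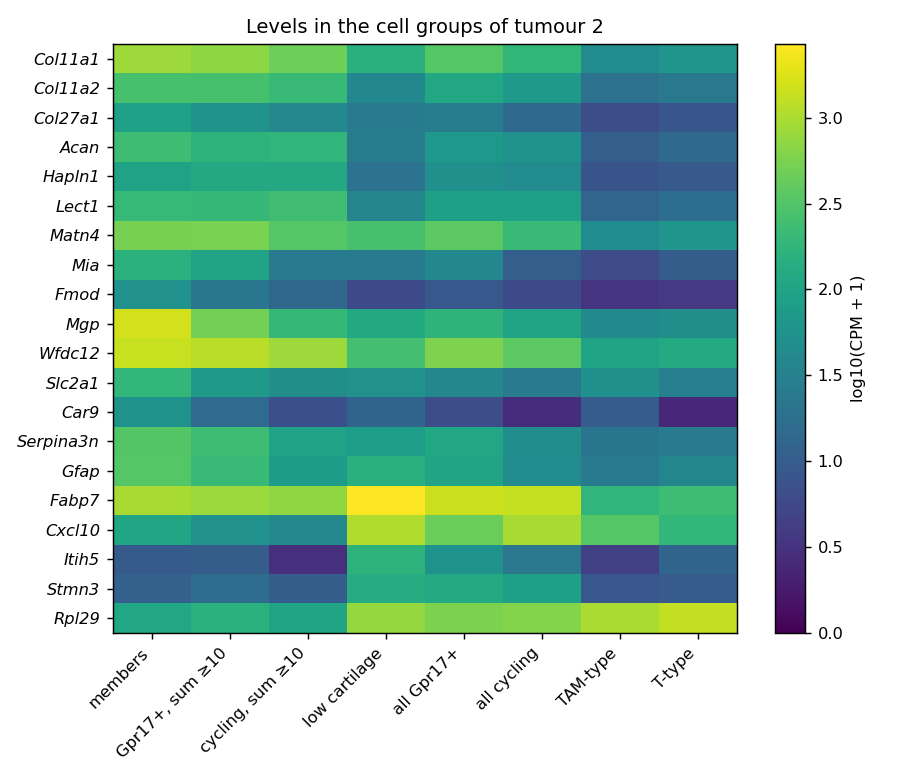
Levels of 20 genes, as log10(CPM + 1), in members and in 7 other cell groups of tumour 2. Cartilage genes and Wfdc12 are bright in the 3 groups on the left, all with a cartilage sum of 10 or more, and dark in TAM-type and T-type cells, whereas Rpl29 and Cxcl10 are darker on the left.

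The members shared a shift of RNA between chromosomes, and chromosomes 9 and 15 were singled out after their values had been seen. The rule gene Col2a1 lies on chromosome 15, so selection on it could favour cells with more RNA from that chromosome. Leaving Col2a1 out of the values does not undo that selection, and its part was not tested. None of the cartilage genes of the rule lies on chromosome 9. Of 402 kept genes on chromosome 9 outside the rule, 51 were above 1-fold against all other EGFP cells (12.7%), and 58 of 417 against low-cartilage cells (13.9%), with median log2 folds of −0.42 and −0.49. On chromosome 15, 319 of 373 genes (85.5%) and 330 of 370 (89.2%) were above 1-fold, with medians of 0.36 and 0.51. Over all genes 50.9% and 53.0% were above 1-fold. The medians of the other chromosomes lay between −0.25 and 0.22 in the first comparison and between −0.32 and 0.32 in the second.

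The same shift was present cell by cell. Genes of chromosome 9 gave a median of 3.47% of a member's UMIs (middle range 3.26 to 3.78), against 4.82% in low-cartilage cells (3.87 to 5.54), 4.80% in TAM-type and 5.63% in T-type cells. Genes of chromosome 15, with the rule gene Col2a1 left out, gave 6.06% (5.52 to 6.48), against 4.44%, 3.74% and 4.43%. Of 264 members, 258 were below the low-cartilage median on chromosome 9 and 258 above it on chromosome 15. The low-cartilage cells were mixed, with some cells in the members' range: 10% of them were at or below 3.33% on chromosome 9, and 10% at or above 6.03% on chromosome 15. The Gpr17+ cells with a high sum had 3.55% and 6.40%, and the cycling cells with a high sum 3.53% and 6.27%. The cause of the shift was not tested.

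**Figure D5:**
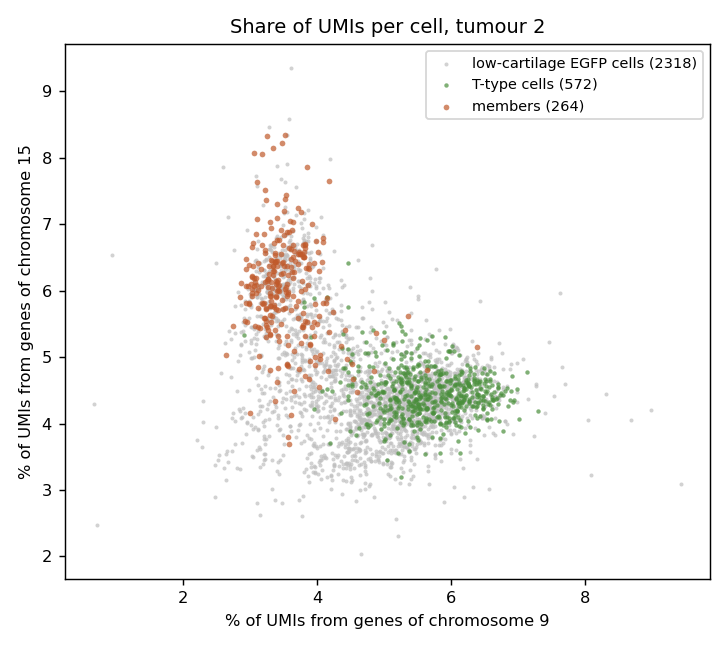
Share of each cell's UMIs from genes of chromosome 9 (x axis, percent) and of chromosome 15 (y axis, percent), rule genes left out, for 264 members, 2318 low-cartilage EGFP cells and 572 T-type cells of tumour 2. Members gather at the upper left around 3.47% and 6.06%, T-type cells at the lower right around 5.63% and 4.43%, and low-cartilage cells spread over both areas.

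The EGFP limit of the rule cut through a wider set of cells. EGFP, which entered the rule, had a median of 31.0 per 10,000 in members and 84.2 in low-cartilage cells, and the main EGFP feature gave 3817 CPM against 16528, with 588 and 741 in TAM-type and T-type cells. In all, 490 cells passed every part but this one, and the 226 under it had a median EGFP of 12.8 and 24113 UMIs. Wfdc12 was at 1390 CPM in those 226 cells, and Col2a1 (942), Col11a1 (1129), Mgp (4110) and Gfap (615) were above their level in members, while Matn1 (141) was below it. All 226 were below the low-cartilage median on chromosome 9, and 224 were above it on chromosome 15. The limit kept 24 of 27 cells with under 3000 UMIs and 62 of 176 with 24000 or more, in which the median EGFP of all cells was 44.4 and 15.5. Cas9 with luciferase and tdTomato gave 4 UMIs each in members.

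In tumour 1 the rule found fewer cells. There 73 of 9287 EGFP cells passed (0.786%, 0.617 to 0.987), and 496 EGFP cells (5.34%) had a cartilage sum of 10 or more. These 73 cells had Col2a1 at 442 CPM, Col9a1 at 588 and Col9a3 at 549, against 673, 263 and 779 in tumour 2. Mgp, at 998 CPM in 16 cells, Col11a1 at 807 and Tspan8 at 93.7 were also present. Wfdc12 was nearly missing, with 3 UMIs (2.84 CPM, 0.586 to 8.30), as in all EGFP cells of tumour 1 (2.48 CPM against 444 in tumour 2), and Matn1 came from 3 cells with 25 UMIs in all. Hapln1 was at 8.52 CPM against 95.1. On chromosome 9 these cells had a median of 5.76% of UMIs against 5.18% in low-cartilage cells of their tumour, and on chromosome 15 4.56% against 4.39%, and the chromosome 9 difference had the opposite sign to that in tumour 2. No test separates the tumours, since each is 1 library.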

How the data were processed

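Per the labels and the study's methods, tumours were dissociated with papain, designated cells were sorted, and 3′ 10x libraries (version 2 chemistry) were made. The deposited values are raw UMI counts per gene and barcode, which the authors made with Cell Ranger 4.0.0 on GRCm38 (mm10) with transgene sequences added, per the submitters' processing notes. The authors later used Seurat with doublet prediction, and that annotation was not used here.

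Barcodes with at least 500 genes and under 20% mitochondrial UMIs were kept. Counts were summed over the cells of a group and given as CPM. With 1 library a tumour there was no test: a gene counted as higher or lower at 2-fold or more, with exact intervals for counting error. The fold table was run on simulated Poisson sums, the same counting model as the intervals, so spread between cells was not part of that check. Genes were named by the smaller of the 2 folds (20 highest, 15 lowest, at least 50 CPM in the higher group, rule, mitochondrial, Gm and Rik genes left out), together with Wfdc12, Mgp and list members. Of these, 2 genes are not reported here. Members and lists were chosen with earlier results of these data known. Doublets were not removed: Scrublet (scanpy 1.11.5) marked 1 of 18596 barcodes by its automatic threshold, which did not work, so removing the 2766 highest scores was an alternative. Other scalings came from edgeR 4.0.16 and DESeq2 1.42.0 (R 4.3.3), the rest from Python 3.11.15 with scipy 1.17.1, and chromosomes from the GENCODE annotation of GRCm38.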

Additional observations from a re-analysis of the deposited data

Results flagged for a closer look

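Among the genes named for tumour 2 with a UMI in the 73 cells that the same rule found in tumour 1, 3 had the opposite direction there in both comparisons with counting intervals clear of 1. Nov, a CCN matricellular protein encoded on chromosome 15, was at 0.134 of the level of other EGFP cells there (2 UMIs, counting interval 0.0162 to 0.484). It was 3.53-fold higher in tumour 2. Stmn4, a neuronal stathmin, was 1.84-fold higher in tumour 1 (1.60 to 2.11) and at 0.138 of the other cells in tumour 2. Rpl29, which lies on chromosome 9, was 1.10-fold higher in tumour 1 (1.04 to 1.15) and at 0.174 in tumour 2. The median share of UMIs from chromosome 9 was 5.76% in these cells of tumour 1, above the 5.18% of low-cartilage cells there, while in tumour 2 it was below (3.47% against 4.82%). Other named genes lay on the opposite side of 1 without meeting this: Pde1c was at 0.604 of other EGFP cells in tumour 1, Slc2a1 at 0.979, and Klk9 gave 0 UMIs against 3.63 CPM. None of these differences between tumours was tested, since each tumour is 1 library and host, tumour and library cannot be told apart.

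Outside the cells compared, 226 cells of tumour 2 passed every part of the rule except the EGFP limit. Their median EGFP of 12.8 per 10,000 lay above the medians of TAM-type (5.63) and T-type cells (9.24). It was below the upper quartile of T-type cells (13.2). The 226 cells held 1390 CPM of Wfdc12, against 99.6 and 124 in TAM-type and T-type cells.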

How the results depend on the processing

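Over 20 alternatives and 142 results, 2421 values were recomputed, of which 1790 stayed within the counting interval or within 1.5 times for counts. Folds of named genes kept their side of 1 in 1373 of 1374 values and list medians their side of 0 in 890 of 943. The number of members followed the limits: 264 became 424 at an EGFP limit of 10, 75 at 40, 530 at a cartilage limit of 5 and 73 at 20. Without an EGFP limit, an alternative chosen with 2 others (at least 5000 UMIs, a Sox2 UMI) after seeing the data, it was 490. Against all other EGFP cells the 325 genes at least 2-fold higher became 610 (EGFP 40), 193 (cartilage 5), 595 (cartilage 20), 572 (thinned to 2000 UMIs), 3867 (no expression filter), 74 (100 CPM), 938 (1.5-fold) and 89 (3-fold), and the 442 lower became 717 (EGFP 40), 904 (thinned), 1798 (no filter), 48 (100 CPM), 1064 (1.5-fold) and 216 (3-fold). Against low-cartilage cells the 428 higher became 685 (EGFP 40), 657 (cartilage 20), 2350 (no filter), 98 (100 CPM), 1146 (1.5-fold) and 144 (3-fold), and the 478 lower became 852 (thinned), 1757 (no filter), 54 (100 CPM), 1156 (1.5-fold) and 223 (3-fold). The median log2 fold of the hypertrophy and bone genes became 0.81 and 0.29 with no filter. That of the whey acidic protein family against all other EGFP cells (3 genes) became 0.59 (EGFP 40), 1.77 (100 CPM), 0.45 (at least 5000 UMIs) and 0.36 (a Sox2 UMI). S100a9 became 1.01-fold against low-cartilage cells with no EGFP limit. List medians under 1 in size on the log2 scale also changed side under some settings: those of the astrocyte (−0.11 against low-cartilage cells at the lowest), fibrillar, mesenchymal, glioma, progenitor, neuronal, cell cycle, immediate early, BMP, FGF and, against low-cartilage cells, whey acidic protein lists. The cause of these changes was not tested. The lowest folds of Mgp were 6.40 and 10.1, and those of Wfdc12 2.82 and 4.71. Other scalings moved the median of all genes by 0.01 and 0.04 on the log2 scale. No paired analysis was possible because each tumour is 1 sample, and no replicate could be left out. Free RNA, 23 members with under 5 rule UMIs and 13 cells holding most Mgp UMIs limit what single cells show.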

Other observations

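The counts of the remaining gene groups stand beside 5.33% and 5.77% of all genes kept that were at least 2-fold lower in the 2 comparisons. Of 16 immediate early genes, 0 were at least 2-fold higher and 0 and 1 lower than in all other EGFP cells and in low-cartilage cells. Of the S phase genes kept, 4 of 22 and 1 of 21 were at least 2-fold lower and 0 higher, with medians of −0.58 and −0.07. Of 6 neuronal and neuroblast genes kept, 2 were lower in both comparisons, with medians of −0.54 and −0.55. Of the committed oligodendrocyte progenitor genes, from which Gpr17 had been used for selection, 2 of 11 were lower than in all other EGFP cells and 2 of 9 higher than in low-cartilage cells. In the whey acidic protein family, Wfdc12 alone was higher among the 3 and 2 genes kept.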
